A study of Homo sapiens with 4 samples.

Results

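Histone genes were examined in AGS cells, a line established from a human gastric adenocarcinoma, with and without an shRNA against MFAP2. The genes were chosen by name: every row of the deposited gene table whose name begins with HIST1H, HIST2H, HIST3H, HIST4H, H2AF, H3F3 or H1F, without names that end as pseudogenes do. This rule gave 89 of 47251 genes, after 2 of 91 matching names were dropped. Of the 89, 72 belong by name to the histone clusters (55 on chromosome 6, 16 on chromosome 1 and 1 on chromosome 12), 16 are by name H1, H2A and H3 variant genes, and 1, H1FX-AS1, is an antisense RNA gene that matches by name alone. The classes follow names and not position: the variant gene H2AFJ (chr12:14774383-14778002) lies close to HIST4H4 (chr12:14767999-14771131), counted among the 72. HIST2H2BA and HIST2H2BB, counted among the 72, are annotated as transcribed pseudogenes. RNA was sequenced from 4 libraries. The sh-MFAP2 pair (2 libraries) came from cells carrying one lentiviral shRNA against MFAP2, and the control pair (2 libraries) from cells carrying a scrambled shRNA, both kept under puromycin. Where the values of a pair follow each other, that of replicate 1 comes first. Only 1 shRNA was sequenced, and the sources do not say whether the replicates were separate cultures, so the p-values may measure technical spread only. Loss of MFAP2, another action of this shRNA and a difference between cultures cannot be told apart, and in bulk RNA neither can fewer cells of a kind and less RNA per cell.

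Histones are the proteins around which DNA is wound in the nucleosome. The clustered genes encode the bulk H2A, H2B, H3, H4 and linker H1 proteins, are made mainly in S phase, mostly lack introns, and give mRNAs that end in a short hairpin, the histone stem-loop, in place of a poly(A) tail. SLBP binds this hairpin and directs its processing and translation. The variant genes are mostly expressed outside S phase too, many give polyadenylated mRNA, some of it spliced, and their products replace bulk histones at particular places, such as H2A.Z at promoters, H2AX at broken DNA and macroH2A in repressed chromatin.

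The stem-loop was read from the GENCODE 29 transcripts as a sign, independent of the measured values, of which genes can give an mRNA without a poly(A) tail. It was searched on the sense strand in the first 100 bases after the stop codon, as a 6-base arm that starts with GG, a 4-base loop that starts with TT, and the reverse complement of the arm. It was found in 30 of the 70 coding clustered genes (42.9%). Of the 70, 34 have fewer than 36 annotated bases after the stop codon, and among the 29 with at least 100 bases it was found in 26 (89.7%). It was found in 1 of the 16 variant genes, H2AFX, and in 2 of 19251 other coding genes (0.0104%), CDC40 and ZNF286A. The genes on which the results turn carry it as follows, with the 16 bases of the hairpin in capitals and 5 bases on each side, 5′ to 3′:
H2AFX: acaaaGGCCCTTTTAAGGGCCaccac
HIST2H2AA4: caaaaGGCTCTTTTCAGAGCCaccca
HIST1H4I: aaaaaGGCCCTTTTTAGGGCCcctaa
HIST1H2AC: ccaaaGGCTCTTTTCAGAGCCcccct
HIST1H2BD, single-exon transcript: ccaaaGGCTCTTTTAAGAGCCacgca
The hairpins lie on GRCh38 at chr11:119094898-119094913 (minus strand) for H2AFX, chr1:149851574-149851589 (plus) for HIST2H2AA4, chr6:27139654-27139669 (plus) for HIST1H4I, chr6:26124669-26124684 (plus) for HIST1H2AC and chr6:26158587-26158602 (plus) for HIST1H2BD. The hairpin of HIST2H2AA4 was the commonest of the 5 forms, shared by 17 genes, and that of H2AFX was found in 1 gene. In H2AFX the annotated transcript runs on for 1044 bases after the hairpin, in HIST1H2AC for 1114 bases and in HIST1H4I for 212 bases, whereas in HIST2H2AA4 it ends 35 bases after it. No such hairpin was found in this window of H2AFJ or H1F0.

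The deposited values are taken as FPKM, fragments scaled by transcript length and library depth, since the tables do not name their unit. From the step between low values, about 30400000 and 27300000 fragments stood behind sh-MFAP2 replicates 1 and 2, and 29500000 and 37300000 behind control replicates 1 and 2, which are inferred depths and not the authors' counts. MFAP2 itself was at 0 in the sh-MFAP2 pair and at 0.0116 and 0.0138 FPKM in the controls, too low to check the labels. EPCAM and the keratins KRT8, KRT18 and KRT19 were at 192.9 to 803 FPKM in every library, as for an epithelial line, while PTPRC, CD3E, VWF, PECAM1, COL1A2 and DCN, markers of blood, endothelium and fibroblasts, were under 0.03 FPKM. VIM and COL1A1 were at 1.91 to 4.92 FPKM. CDH1, also an epithelial marker, was at 0.584 to 1.25 FPKM. LYZ, listed with blood markers but also made by gastric epithelium, was at 85.5 to 579 FPKM and differed most between replicates. One feature of the whole table touches the histone genes. Of the 141 tested genes whose every listed transcript has 1 exon, 66 (46.8%) had a value of 5 FPKM or more in one library and under 10% of their highest value in another, as did 134 of 9719 spliced genes (1.38%). The part of this pattern in the results below was not tested.

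Most clustered genes were at or near 0 in every library, and the variant genes held most of the summed histone FPKM. Of the 72 clustered genes, 39 were listed at 0 in all 4 libraries, 33 were above 0 in at least 1, and 9 were above 0 in all 4. At least 1 FPKM was reached by 4 and 5 clustered genes in the sh-MFAP2 pair, and by 2 in each control. Summed over the 72 genes, the level was 25.1 and 24.9 FPKM in the sh-MFAP2 pair and 7.98 and 10.0 FPKM in the control pair. Both sh-MFAP2 sums were above both control sums. Without HIST2H2AA4 the sums were 12.6, 10.3, 6.82 and 9.19 FPKM in the same order. Without HIST1H2BD as well they were 6.23, 8.45, 6.78 and 9.19 FPKM, and the groups overlapped. The difference between the sums therefore lay in 2 genes.

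**Figure D1:**
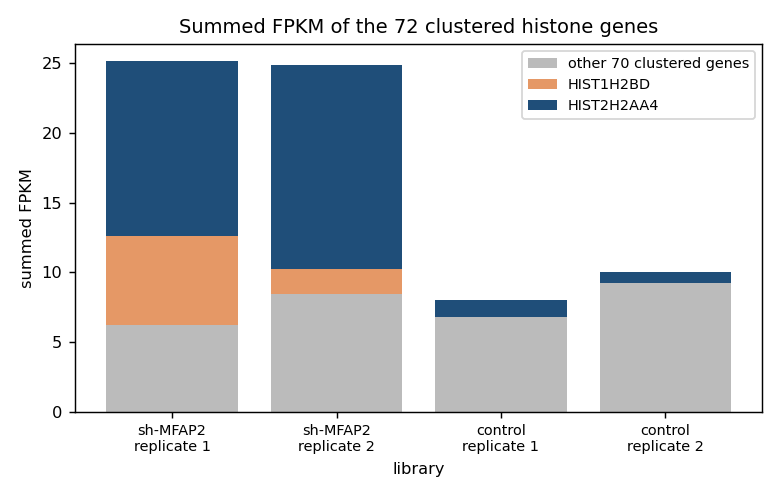
Summed FPKM (vertical axis, from 0) of the 72 clustered histone genes in each of the 4 libraries, split into HIST2H2AA4, HIST1H2BD and the other 70 genes. The sums were 25.1 and 24.9 FPKM in the sh-MFAP2 pair and 7.98 and 10.0 FPKM in the control pair, and the part of the other 70 genes ran from 6.23 to 9.19 FPKM with the groups overlapping.

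The 16 variant genes summed to 537 and 540 FPKM in the sh-MFAP2 pair and to 493 and 601 FPKM in the controls, so that the groups overlapped. Without H1F0, listed at 0 in control replicate 1, the sums were 434.7 and 424.5 FPKM against 493.1 and 438.1 FPKM. Both sh-MFAP2 sums were then below both control sums. The gene value of H2AFZ, the gene of H2A.Z, was 222 FPKM in sh-MFAP2 replicate 1, where its transcripts summed to 524 FPKM. For H1F0, with 1 listed transcript, both were 101.9 FPKM. Levels of different genes, and the sums over them, may thus not be on one scale. By histone, the clustered sums in the sh-MFAP2 and then the control pair were 14.5, 18.6, 4.62 and 4.88 FPKM for 17 H2A genes, 7.06, 2.43, 1.45 and 0.690 FPKM for 20 H2B genes, and 2.89, 3.54, 1.47 and 1.89 FPKM for 15 H4 genes. The 14 H3 genes summed to 0.680, 0.275, 0.434 and 2.32 FPKM, and of 6 clustered H1 genes only HIST1H1E was above 0, at 0.248 FPKM in control replicate 2. The H2A and H2B sums were higher in sh-MFAP2 through HIST2H2AA4 and HIST1H2BD, and the H4 sums were also apart. How the libraries were selected, by poly(A) or by removal of ribosomal RNA, is not given in the sources used here. Among 15 abundant RNAs without a poly(A) tail, 13 names were in the table and 6 of these were listed at 0 in every library, and the highest value was 6.21 FPKM, for RMRP, the RNA of RNase MRP, in control replicate 1.

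The values behind single clustered genes were mostly few fragments. Of 57 clustered genes with 1 listed transcript, 35 were listed at 0 throughout, 16 stood on more than 3 inferred fragments in at least 1 library, and 4 did so in all 4. Among the 33 clustered genes above 0, the mean was higher in sh-MFAP2 for 17 and lower for 16. The groups were apart, with sh-MFAP2 higher, for 7 and, with sh-MFAP2 lower, for 7, where such genes were 16.0% and 21.2% (together 37.2%) of all 23806 genes above 0 in any library. HIST1H3C, an H3 gene, was at 0, 0.185, 0 and 1.37 FPKM in the sh-MFAP2 and then the control pair. HIST1H2AG, an H2A gene, was at 0, 0.284, 0.653 and 0.469 FPKM, with both controls above both sh-MFAP2 libraries. HIST1H4E, named after its values were seen, was at 1.10 FPKM in sh-MFAP2 replicate 2 and listed at 0 in the other 3 libraries. No direction can be read from such a pattern at this depth.

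**Figure D2:**
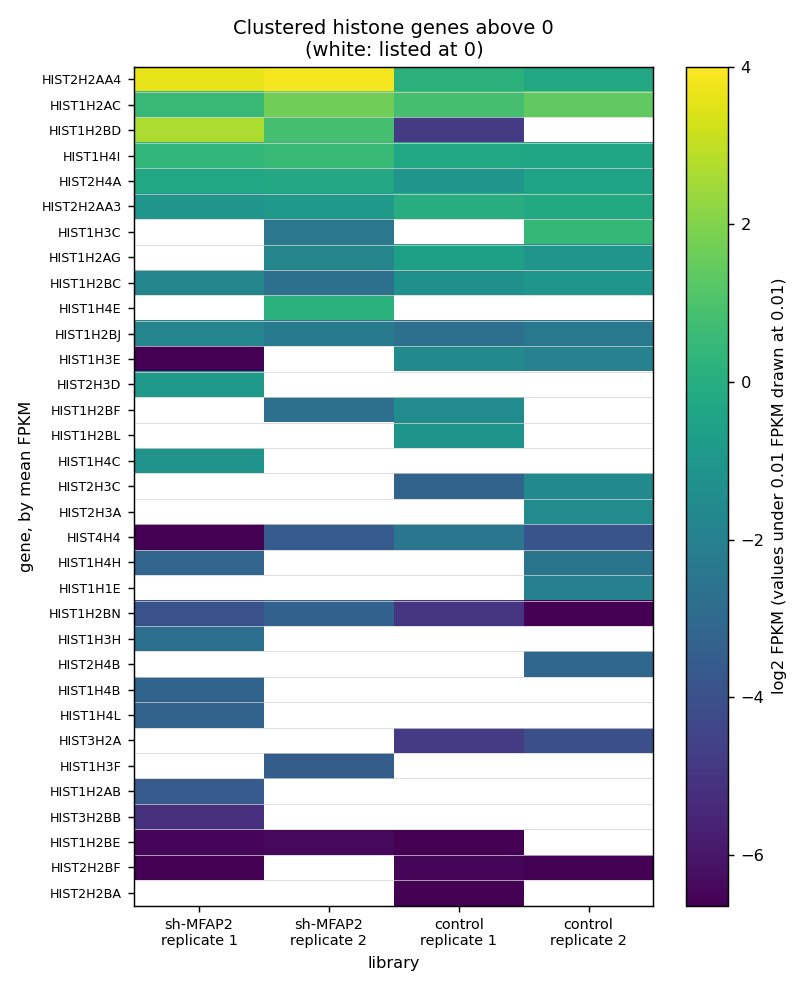
Log2 FPKM (colour) of the 33 clustered histone genes that were above 0 in at least 1 library, with 1 row per gene by mean FPKM and 1 column per library. White marks genes listed at 0 and values under 0.01 FPKM are drawn at 0.01 FPKM. Of the 33 genes, 9 were above 0 in all 4 libraries.

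Groups were compared for the 12 histone genes whose mean reached 1 FPKM, 4 clustered and 8 variant genes, in a limma fit over all 9873 such genes on log2(FPKM + 1). This scale understates the change of low genes. Genes with p under 0.01 and adjusted p under 0.05 were called differentially expressed (DEGs). H2AFJ, HIST2H2AA4, HIST1H2BD and HIST1H4I had control means under 1 FPKM and passed the filter only through the sh-MFAP2 libraries, where they were higher, and no gene passed only through the controls. These are 4 of the 12 and 3 of the 4 clustered genes, so that counts and medians over the 12 are descriptions and support no direction. Of the 12, 3 were DEGs, H2AFX lower and HIST2H2AA4 and H2AFJ higher in sh-MFAP2, where the background over all tested genes was 27 DEGs (0.273%). At an unadjusted p under 0.05 there were 6 of 12, against 12.3% of all tested genes. The groups did not overlap for 6 of 12, close to the 48.9% of all tested genes. Over the 33 clustered genes above 0 in any library, with no filter, the median log2 fold change was 0.00. Over the 4 clustered genes that passed the filter it was 1.29, a sign that the filter fixed for 3 of them, and over the 8 variant genes 0.06, beside -0.05 over all tested genes. With 1 library left out, whichever it was, none of the 3 stayed a DEG, nor did any other gene of the table in the same limma fit. Two-sided exact permutation of 2 against 2 libraries cannot give a p below 0.333.

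**Figure D3:**
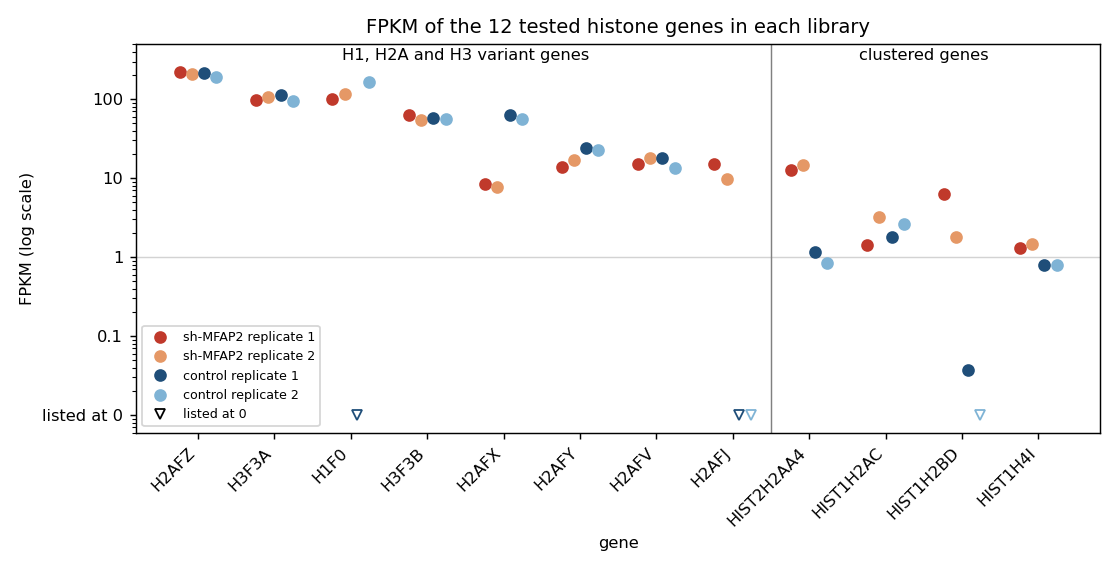
FPKM (log axis) of the 12 tested histone genes in each library, with variant genes at the left and clustered genes at the right, ordered by mean. Open triangles mark values listed at 0. H2AFX, at 8.54 and 7.82 FPKM in the sh-MFAP2 pair against 63.0 and 56.4 FPKM in the control pair, and HIST2H2AA4, at 12.5 and 14.6 against 1.16 and 0.834 FPKM, separate by group, while H1F0 is listed at 0 in control replicate 1 alone.

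H2AFX encodes H2AX, the H2A variant that is phosphorylated at DNA double-strand breaks. The gene has 1 exon, at chr11:119093854-119095467 of GRCh38 (minus strand), with no overlapping annotated gene, and it is known to give both stem-loop and polyadenylated mRNA. It was at 8.54 and 7.82 FPKM in the sh-MFAP2 pair and at 63.0 and 56.4 FPKM in the control pair. The sh-MFAP2 values were far below the control values, and replicates lay close together. The mean was 7.30-fold lower in sh-MFAP2, with a log2 fold change of -2.72 (standard error 0.121, limma adjusted p = 0.0241). About 344.5 to 3401 inferred fragments stood behind each value. Leaving out any 1 library kept the log2 fold change between -2.80 and -2.65, while the adjusted p from limma rose to 0.132 to 0.179.

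HIST2H2AA4 encodes a bulk H2A protein and has 1 exon of 564 bases at chr1:149851061-149851624 (plus strand). It was at 12.5 and 14.6 FPKM in the sh-MFAP2 pair and at 1.16 and 0.834 FPKM in the control pair. Both sh-MFAP2 values were above both controls, by 13.6-fold in the mean, with a log2 fold change of 2.87 (standard error 0.149, limma adjusted p = 0.0314). Its control mean was 0.995 FPKM, so it was tested only through the sh-MFAP2 libraries and this p cannot support the difference. The limma adjusted p was 0.122 with no filter, 0.0663 at a mean of 5 FPKM or more and 0.0516 among genes above 0 in all libraries. HIST2H2AA3, its copy at chr1:149842188-149842736 (minus strand), is identical to it over all 549 of its bases, and the transcript of HIST2H2AA4 is longer at one end only. Reads of this pair can be told apart by few bases, and the values of each are uncertain. HIST2H2AA3 was at 0.473 and 0.525 FPKM in the sh-MFAP2 pair and at 0.983 and 0.874 FPKM in the control pair, with the groups apart in the other direction. Summed over the pair, the values were 13.0 and 15.1 FPKM against 2.14 and 1.71 FPKM. The sum was 7.31-fold higher in sh-MFAP2, with a log2 fold change of 2.37 (standard error 0.145, limma adjusted p = 0.0479). The sum thus kept the direction of HIST2H2AA4. The inferred fragments behind HIST2H2AA4 were 214.5 and 225 in sh-MFAP2 and 19.2 and 17.6 in control.

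H2AFJ encodes H2A.J, an H2A variant known to accumulate in senescent cells, and has 1 listed transcript, of 1 exon, within chr12:14774383-14778002 (plus strand). It was at 14.9 and 9.66 FPKM in the sh-MFAP2 pair and listed at 0 in both controls. No fold is given against a group listed at 0. Limma gave an adjusted p = 0.0482. The gene was tested only through its sh-MFAP2 values, and controls at 0 add no spread, so this p cannot support the difference. The limma adjusted p was 0.128 with no filter, 0.0916 at a mean of 5 FPKM or more and 0.0506 with median of ratios. The inferred fragments were 292 and 170 in the sh-MFAP2 libraries. A like step from many fragments to 0 appeared within the control group for H1F0, so that a 0 in the table is reported here only as listed.

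H1F0 encodes the linker histone H1.0, which is abundant in cells that have left the cycle, and has 1 exon at chr22:37805093-37807436 (plus strand). It was at 101.9 and 115 FPKM in the sh-MFAP2 pair, listed at 0 in control replicate 1 and, in control replicate 2, at 163 FPKM. The last value corresponds to about 14288 inferred fragments. The control replicates lay on both sides of the sh-MFAP2 values. The log2 fold change of 3.09 had a standard error of 2.68, the largest of the 12 genes (limma adjusted p = 0.633). Without control replicate 1 the log2 fold change was -0.59, and without control replicate 2 it was 6.77. H1FX, a single-exon linker histone gene named after its values were seen, was at 2.07 FPKM in control replicate 2, on 116.5 inferred fragments, and at or next to 0 in the other libraries.

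HIST1H2BD, an H2B gene on chromosome 6 from 26158146 to 26171349, was at 6.38 and 1.80 FPKM in the sh-MFAP2 pair, at 0.0368 FPKM in control replicate 1 and listed at 0 in control replicate 2. The sh-MFAP2 values were the higher ones but differed widely from each other (log2 fold change 2.16, standard error 0.519, limma adjusted p = 0.349). The gene was tested only through these values, so this p cannot support the difference. Its annotation holds a single-exon transcript of 496 bases that carries the stem-loop and a 2-exon transcript of 789 bases without it. The 2-exon transcript held 99.8% and 99.4% of the summed transcript FPKM in the sh-MFAP2 libraries. The gene overlaps an antisense RNA gene, AL353759.1, and a processed pseudogene on its own strand, LARP1P1, and whether the counting used strand is not given.

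HIST1H4I, an H4 gene on chromosome 6 from 27138588 to 27139881, was at 1.32 and 1.48 FPKM in the sh-MFAP2 pair and at 0.803 and 0.797 FPKM in the control pair. The groups did not overlap, with a log2 fold change of 0.41 (standard error 0.104, limma adjusted p = 0.361). The control mean of HIST1H4I was 0.8 FPKM, so it was tested only through the sh-MFAP2 libraries and this p cannot support the difference. HIST1H2AC, an H2A gene on chromosome 6 from 26124145 to 26139116, was at 1.42, 3.21, 1.79 and 2.64 FPKM in the sh-MFAP2 and then the control pair. Its groups overlapped, with a log2 fold change of 0.00 (standard error 0.336, limma adjusted p = 0.999). HIST2H4A, an H4 gene, was at 0.804, 0.866, 0.485 and 0.729 FPKM in the same order. It is identical over 583 bases to HIST2H4B, and the pair summed to 0.804, 0.866, 0.485 and 0.847 FPKM, where the groups overlapped.

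The spliced variant genes included the most abundant histone gene. Of the 5 tested only H2AFY had groups that did not overlap, beside 49.0% of all spliced genes tested. H2AFZ, the gene of H2A.Z (chromosome 4, 99948086 to 99950388), was the highest histone gene in every library, at 222, 211, 215 and 190.5 FPKM in the sh-MFAP2 and then the control pair. Its groups overlapped (log2 fold change 0.09, standard error 0.123, limma adjusted p = 0.749). H3F3A (chromosome 1, 226061851 to 226072001) and H3F3B (chromosome 17, 75776434 to 75785893) encode the same replacement H3 protein. H3F3A was at 97.1, 106, 114 and 95.8 FPKM (log2 fold change -0.04, standard error 0.143, limma adjusted p = 0.914). H3F3B was at 62.7, 54.1, 57.8 and 56.2 FPKM (log2 fold change 0.03, standard error 0.127, limma adjusted p = 0.923). In every library H3F3A stood above H3F3B. H2AFV (chromosome 7, 44826791 to 44848083), which encodes a close relative of H2A.Z, was at 15.3, 18.2, 18.2 and 13.6 FPKM (log2 fold change 0.08, standard error 0.194, limma adjusted p = 0.863). H2AFV lay below H2AFZ in every library, and its groups overlapped as those of H2AFZ and both H3 genes did. H2AFZ and H3F3A overlap antisense genes and H3F3B overlaps UNK on the other strand, so that some of their reads may not be their own.

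H2AFY, the gene of macroH2A1, an H2A with a large extra domain, lies at chr5:135333900-135399914 (minus strand) and overlaps the antisense gene C5orf66. It was at 13.7 and 16.9 FPKM in the sh-MFAP2 pair and at 24.2 and 22.8 FPKM in the control pair. The groups did not overlap, with a log2 fold change of -0.59 (standard error 0.146, limma adjusted p = 0.352). It was the only spliced variant gene with an unadjusted p under 0.05, of 5 tested, beside 12.2% of all spliced genes tested. Its longer coding transcripts use one of a pair of alternative exons in place 6, and ENST00000423969 (200 codons) holds neither. ENST00000304332 (371 codons) holds an exon of 100 bases at chr5:135352946-135353045, and ENST00000312469 (369 codons) an exon of 91 bases at chr5:135350823-135350913.

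The transcripts of H2AFY summed to 93.5, 122.8, 203.8 and 189.6 FPKM in the sh-MFAP2 and then the control pair. These sums were far above its gene values, so transcript and gene values are not on one scale. At the transcript level ENST00000304332 was at 14.0, 46.2, 91.6 and 73.5 FPKM in the same order. ENST00000312469 was at 4.20, 23.8, 44.5 and 39.2 FPKM. In both, sh-MFAP2 replicate 1 was lowest, sh-MFAP2 replicate 2 came next and the controls were higher. ENST00000511689 shares the exon of 100 bases with ENST00000304332. It has a different first exon, a longer last exon and an exon of 111 in place of 108 bases in place 5. ENST00000511689 was at 65.9, 25.7, 20.5 and 31.3 FPKM. It held 70.4% of the summed H2AFY transcript FPKM in sh-MFAP2 replicate 1 and 10.0% to 20.9% in the other libraries. The replicates of sh-MFAP2 therefore differed in how H2AFY was divided among its transcripts, and how such a division was estimated is not given.

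**Figure D4:**
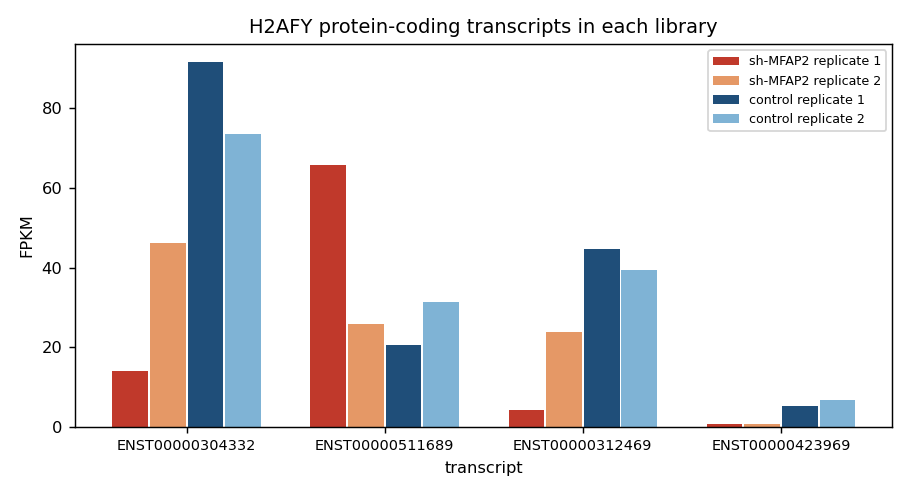
FPKM (vertical axis, from 0) of the 4 H2AFY coding transcripts with the highest means, with 1 bar per library. ENST00000304332, ENST00000312469 and ENST00000423969 are lower in both sh-MFAP2 libraries than in both controls, and ENST00000511689 is high in sh-MFAP2 replicate 1 alone, at 65.9 FPKM.

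Single-exon and spliced histone genes were set side by side. All listed transcripts have 1 exon in 59 clustered genes, of which 2 were tested, HIST2H2AA4 and HIST1H4I, with log2 fold changes of 2.87 and 0.41. Of 7 spliced variant genes 5 were tested, with log2 fold changes from -0.59 to 0.09 and a median of 0.03. The remaining single-exon genes tested were H2AFX, H2AFJ and H1F0, which are variant genes. All 3 histone DEGs were single-exon, 3 of 5 such genes tested, and 0 of 7 spliced histone genes were DEGs in limma. Of the 7, 2 had an unadjusted p under 0.05, H2AFY and HIST1H2BD, beside 12.2% of all spliced genes tested. HIST1H2BD was tested only through its sh-MFAP2 values. H2AFJ and HIST2H2AA4, both DEGs, and HIST1H4I were tested only because they were higher in sh-MFAP2. The share called among the 5, and the median and count over them below, are therefore no measure of single-exon histone genes. In the whole table, 13 of 141 tested single-exon genes (9.22%) and 14 of 9719 spliced genes (0.144%) were DEGs. The median absolute log2 fold change was 2.87 for the 5 single-exon histone genes, which is the value of HIST2H2AA4, and 0.08 for the 7 spliced ones. For all single-exon and all spliced genes tested it was 0.611 and 0.186. Of the 5, 3 met the rule above for values of 5 FPKM or more beside values under 10% of the highest, H2AFJ, H1F0 and HIST2H2AA4, beside 46.8% of all single-exon genes. H2AFX missed the rule by little, with a lowest value of 7.82 FPKM (sh-MFAP2 replicate 2) and a highest of 63.0 FPKM (control replicate 1).

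**Figure D5:**
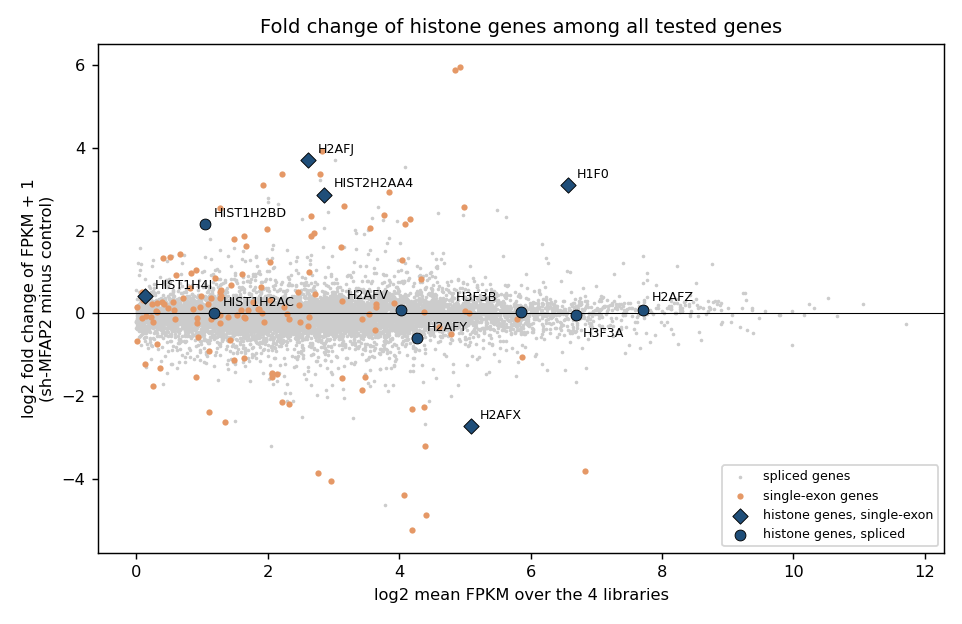
Log2 fold change of FPKM + 1 (sh-MFAP2 minus control, vertical axis) against log2 mean FPKM for the tested genes. Spliced genes are in grey, other single-exon genes in orange and the 12 histone genes in blue. The 13 tested genes without an exon number are not drawn. The 5 spliced variant genes lie between -0.59 and 0.09, while H2AFX is at -2.72 and HIST2H2AA4 at 2.87, in the range where other single-exon genes scatter.

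Of the genes that were not tested, H2AFY2, a second macroH2A gene, was at 0.734 to 1.15 FPKM with overlapping groups. H3F3C and H2AFB2 were under 0.04 FPKM, and H1FOO, H1FNT, H2AFB1 and H2AFB3, genes mostly used in the germ line, were listed at 0 in every library. The antisense gene H1FX-AS1 did not exceed 0.0450 FPKM. The 68 clustered genes that were not tested reached at most 1.37 FPKM.

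Genes that make, process and place histones were listed as background to these values. Of 22 genes for transcription and processing of histone mRNA, all were tested, 7 higher and 15 lower in sh-MFAP2. Their median log2 fold change was -0.06. None was a DEG in limma, and 4 had an unadjusted p under 0.05, all lower, where 12.3% of all tested genes had such a p and the median over all of them was -0.05. ERI1, the exonuclease that trims histone mRNA at its stem-loop, was at 3.65 and 4.85 FPKM in the sh-MFAP2 pair and at 10.32 and 10.45 FPKM in the control pair (log2 fold change -1.13, limma adjusted p = 0.216). It had the largest difference of the 4, with the groups apart. CASP8AP2, a part of the histone locus body, had a log2 fold change of -0.37 (limma adjusted p = 0.398). ZCCHC11, which adds uridines to histone mRNA, had -0.35, and NCBP1, the large cap-binding subunit, had -0.33 (limma adjusted p = 0.394 for both). SLBP was at 42.3, 57.3, 43.2 and 33.8 FPKM in the sh-MFAP2 and then the control pair, with overlapping groups (log2 fold change 0.36, limma adjusted p = 0.545). NPAT, the activator of clustered histone genes, was at 3.39 and 3.15 FPKM against 3.68 and 3.81 FPKM (log2 fold change -0.15, limma adjusted p = 0.562).

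Of 32 histone chaperones and exchange factors 31 were tested, 11 higher and 20 lower. Their median log2 fold change was -0.09. None was a DEG in limma, and 2 of the 31 had an unadjusted p under 0.05, both lower, a smaller share than the 12.3% of all tested genes. OIP5, which helps to load CENP-A, was at 11.2 and 13.2 FPKM in the sh-MFAP2 pair and at 22.9 and 19.1 FPKM in the control pair (log2 fold change -0.74, limma adjusted p = 0.330). ATRX, a remodeller that places replacement H3, was at 2.36 and 2.74 FPKM against 4.01 and 4.41 FPKM (log2 fold change -0.56, limma adjusted p = 0.330). CENPA, the H3 variant gene of the centromere, whose name the rule does not take, was at 8.08 and 13.2 FPKM against 11.99 and 16.16 FPKM, with overlapping groups (log2 fold change -0.39, limma adjusted p = 0.589). Of 24 S phase genes, 16 were higher and 8 lower. Their median log2 fold change was 0.13. None was a DEG in limma, and POLA1, a subunit of the primase-polymerase, was the only one with an unadjusted p under 0.05 (log2 fold change -0.30, adjusted p = 0.399), beside 12.3% of all tested genes.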

How the data were processed

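The authors deposited 1 gene table and 1 transcript table with non-whole values per library, taken here as FPKM because the deposited files do not name their unit. The genome build in the submitters' processing notes is hg38; the aligner, estimator, annotation and library selection are not given in the sources used here. Members and gene lists were chosen with earlier results of these data known. Coordinates, exons and stem-loops came from GENCODE 29 on GRCh38, in which all 89 genes were found. Groups came from the labels. The result of 1 marker gene is not reported here. The 9873 genes whose mean was 1 FPKM or more were tested as log2(FPKM + 1) with limma 3.58.1 (lmFit, eBayes with a variance trend) in R 4.3.3, two-sided, with Benjamini-Hochberg adjustment over all of them; the fit was tested on simulated data. The supplementary methods of the study used a random variance model, for which limma stands in. Genes described in full were DEGs, those with an unadjusted p under 0.05, the 8 clustered and 8 variant genes with the highest means, and the 5 with the largest absolute log2 fold change; SLBP, NPAT, CENPA and list genes with an unadjusted p under 0.05 were named too, and others are marked. Fragments were inferred from steps between low FPKM values, of which 54.3% to 55.6% lay within 5% of a read of whole reads, so counts were not recovered and no count test or interval was used. Alternatives were other filters, pseudocount, scalings, variance models, transcript sums, summed copies, a replicate block and each library left out. Python 3.11.15, pandas 2.3.3, Biopython 1.88 and matplotlib 3.10.9 were used.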

Additional observations from a re-analysis of the deposited data

How the results depend on the processing

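The 3 histone DEGs became 0 of 46 tested when no filter was applied, with 11 of the 46 at an unadjusted p under 0.05. At a mean of 5 FPKM or more 1 of 9 was left, which was H2AFX. Among genes above 0 in all libraries (chosen after seeing the data) it was 1 of 9, also H2AFX. In the main fit 6 of 12 had an unadjusted p under 0.05, beside 12.3% of all tested genes. That share is not given for the other fits, so their counts at this p are no measure of histone genes. The fits over other genes changed the number tested. With each library left out the count was 0, in fits where a lone library is assumed to vary like the other group. With the replicate block it was 0, with 5 of 12 at an unadjusted p under 0.05, and 0 in the whole table. Deviations of same-numbered libraries correlated at -0.0572 over 9873 genes. No pairing over the whole table showed in this value, which cannot tell whether a part of the genes is paired. The other settings gave 3, except median of ratios with 2, where H2AFJ was lost (limma adjusted p = 0.0506). The median log2 fold change of the clustered genes, 1.29, was 0.00114 when no filter was applied, 2.87 at 5 FPKM or more (1 gene), 2.19 with a pseudocount of 0.1, 0.41 among genes above 0 in all libraries and 0.96 to 1.56 with each library left out. That of the variant genes, 0.06, ran from -0.0536 to 0.0677 with each library left out. H2AFX, HIST2H2AA4, H2AFJ, H2AFY, HIST1H2BD, HIST1H4I and H2AFZ kept their direction in every setting run. H2AFV turned to -0.0457 with transcript sums and ran from -0.11 to 0.28 with each library left out, H3F3A turned to 0.0316 with median of ratios and ran from -0.16 to 0.0828, H3F3B ran from -0.0724 to 0.14, HIST1H2AC turned to -0.0221 with a pseudocount of 0.1 and ran from -0.40 to 0.40, and H1F0 ran from -0.59 to 6.77. The cause was not tested. Depth was inferred, so the precision of values near 0 is unknown.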
